A study of Mus musculus with 12 samples.

Results

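The genes described here are 10 that restrain bone morphogenetic protein (BMP) signalling or are switched on by it: the secreted inhibitors Nog, Grem1, Chrd and Fst, the membrane pseudoreceptor Bambi, the inhibitory SMADs Smad6 and Smad7, and the transcriptional targets Id1, Id2 and Id3. They were taken by name, with no measured value in the rule, but with earlier results of these data known. They are 10 of the 39179 genes in the count files and 10 of the 17967 genes tested. All 10 had counts in every library, from 26 (Fst) to 4615 (Bambi). The RNA came from the calvaria, the roof of the skull, of C57BL/6 mouse embryos at embryonic day 17.5. WT embryos and embryos heterozygous for Runx2 (Runx2+/-), the transcription factor required for osteoblast formation, came from parents paired when 8 weeks old, and the dams were given vehicle or MS-275, also called entinostat, which inhibits histone deacetylases of class I. This gave 4 groups of 3 libraries: WT vehicle, Runx2+/- vehicle, WT MS-275 and Runx2+/- MS-275. Dams of all 4 groups were injected 2 times, first 14.5 and then 16.5 days post coitum. The MS-275 dams received 10 mg per kg by intraperitoneal injection, so the embryos were exposed through the mother. The labels do not state which stretch of Runx2 is missing, nor that the replicates are separate embryos or litters, so p-values measure the spread among these libraries, which may be partly technical.

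BMPs bind paired type I and type II serine/threonine kinase receptors, which phosphorylate SMAD1, SMAD5 and SMAD9. These join SMAD4, enter the nucleus and activate targets such as the Id genes, whose products block basic helix-loop-helix factors. Noggin, gremlin, chordin and follistatin bind ligands outside the cell, BAMBI is a receptor-like protein without a kinase domain, and SMAD6 and SMAD7 block receptors and SMADs from within. Several of these brakes are themselves BMP targets, and in the skull they are known for holding back bone formation, as noggin does in the sutures.

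Promoters are shown because direct BMP targets are known to carry SMAD sites near their starts. The RefSeq promoter table (GRCm38.p6) held 5 of the 10 genes, Grem1, Chrd, Smad6, Id2 and Id3. Each window runs from 250 bases before to 20 bases after the start annotated there, and those of Smad6, Id2 and Id3 are printed. The windows of Id2 and Id3 lie inside the gene spans of GENCODE M21 given below, whose outermost starts are further upstream. Capitals mark matches to the SMAD palindrome GTCTAGAC, the SMAD-binding element GTCTG, which reads CAGAC on the other strand, or the GC-rich SMAD motif, GGCGCC. Smad6 (chr9:64022040-64022309, minus strand) has GTCTAGAC beginning 4 bases before its start. Id2 (chr12:25096073-25096342, minus strand) has GGCGCC beginning 231 bases before its start. Id3 (chr4:136143572-136143841, plus strand) has CAGAC 167 bases and GTCTG 68 bases before its start. Each is written 5′ to 3′ in the direction of the gene:
Smad6: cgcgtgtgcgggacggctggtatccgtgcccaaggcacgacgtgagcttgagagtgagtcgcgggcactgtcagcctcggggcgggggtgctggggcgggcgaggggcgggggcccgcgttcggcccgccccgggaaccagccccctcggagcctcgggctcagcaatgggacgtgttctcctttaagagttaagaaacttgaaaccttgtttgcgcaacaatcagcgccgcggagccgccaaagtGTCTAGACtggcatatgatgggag
Id2: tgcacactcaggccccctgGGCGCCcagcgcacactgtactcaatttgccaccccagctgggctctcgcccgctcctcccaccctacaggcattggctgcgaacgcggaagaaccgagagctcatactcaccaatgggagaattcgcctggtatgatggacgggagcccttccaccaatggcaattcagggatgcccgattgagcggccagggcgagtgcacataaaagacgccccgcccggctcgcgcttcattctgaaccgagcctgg
Id3: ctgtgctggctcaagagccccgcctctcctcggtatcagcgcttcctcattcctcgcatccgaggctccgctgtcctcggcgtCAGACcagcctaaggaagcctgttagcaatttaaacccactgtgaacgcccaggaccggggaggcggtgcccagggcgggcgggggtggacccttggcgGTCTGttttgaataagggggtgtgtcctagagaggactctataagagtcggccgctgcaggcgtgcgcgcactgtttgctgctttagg

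Both strands of 32851 promoters of this length were searched. GTCTAGAC, which holds neither GTCTG nor CAGAC, was in 0.183% of them, GTCTG or CAGAC in 45.4% and GGCGCC in 10.4%. Grem1 and Chrd each held GGCGCC and GTCTG or CAGAC. The RUNX core TGTGGT, which reads ACCACA on the other strand, was in 15.1% of all promoters and in none of the 5. A match is a description of the letters and not evidence of binding.

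Some libraries stood apart, and each result below is given with that in view. Replicate 3 of Runx2+/- MS-275 correlated best with WT vehicle replicate 1 (r = 0.976 over genes), while the other MS-275 libraries correlated best with a WT MS-275 library. Its first principal component score was −106, against 83.9 to 140.03 in the other 5 MS-275 libraries. Over all genes this library thus goes against its label, and whether it was labelled and dosed as stated was not tested, so each of its values is that of the library labelled Runx2+/- MS-275 replicate 3. The vehicle libraries numbered 3, of WT and of Runx2+/-, were also apart from the other vehicle libraries and nearest to each other (r = 0.968). Libraries held 13307456 to 19399760 counts in genes. CPM, the unit of all levels here, is counts brought to a common library size with TMM (trimmed mean of M values) factors. The summed level of 9 osteoblast markers ranged from 3507 to 81318 CPM. Epidermal, skeletal muscle, neuronal and lens markers were also counted in every library. How much of the RNA came from calvarial bone was not tested. Xist reached 1000 counts in 1 WT vehicle, 2 Runx2+/- vehicle, 2 WT MS-275 and 3 Runx2+/- MS-275 libraries, so sex was not balanced, and 1 of the Runx2+/- vehicle libraries also held at least 50 counts in Y-linked genes. Whether that library is RNA of a single embryo was not tested. Runx2 itself was at 45.5, 42.4 and 46.1 CPM in WT vehicle libraries, inside the range of the Runx2+/- vehicle libraries (65.3, 32.8 and 58.1 CPM), so the level of Runx2 did not check the genotype labels.

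Levels are compared between genes as CPM per kilobase of exon. In WT vehicle the Id genes were far above the rest: Id2 had 38.5 ± 1.30, Id3 37.4 ± 22.3 and Id1 27.3 ± 12.5 CPM per kilobase (mean ± SD, n = 3). The next gene, Bambi, had 4.33 ± 1.29 CPM per kilobase, and its libraries did not overlap those of Id1. Below it came Fst (4.13), Smad6 (3.63), Nog (2.82), Smad7 (2.63), Chrd (2.36) and Grem1 (1.82 CPM per kilobase), and every neighbouring pair in that run overlapped. In Runx2+/- vehicle the same 3 Id genes led (26.2 to 35.6 CPM per kilobase), Bambi followed at 4.58, and the other 6 genes lay between 2.14 and 3.60.

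The order was different in WT MS-275. Id3 led with 108 ± 2.28 CPM per kilobase, and its libraries did not overlap those of Id1 (81.8 ± 16.9). Id1, Id2 (71.1 ± 21.9) and Bambi (57.9 ± 18.8 CPM per kilobase) overlapped as neighbours, so Bambi had joined the range of the Id genes. Smad6 (10.5), Nog (5.64) and Smad7 (3.75) then followed in steps without overlap between neighbours. Chrd (1.93) and Grem1 (1.48) overlapped, and Fst, the fifth in WT vehicle, was last with 0.965 CPM per kilobase. In Runx2+/- MS-275 the means ran from 52.4 (Id3) to 1.64 CPM per kilobase (Fst), and all 9 neighbouring pairs overlapped.

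**Figure D1:**
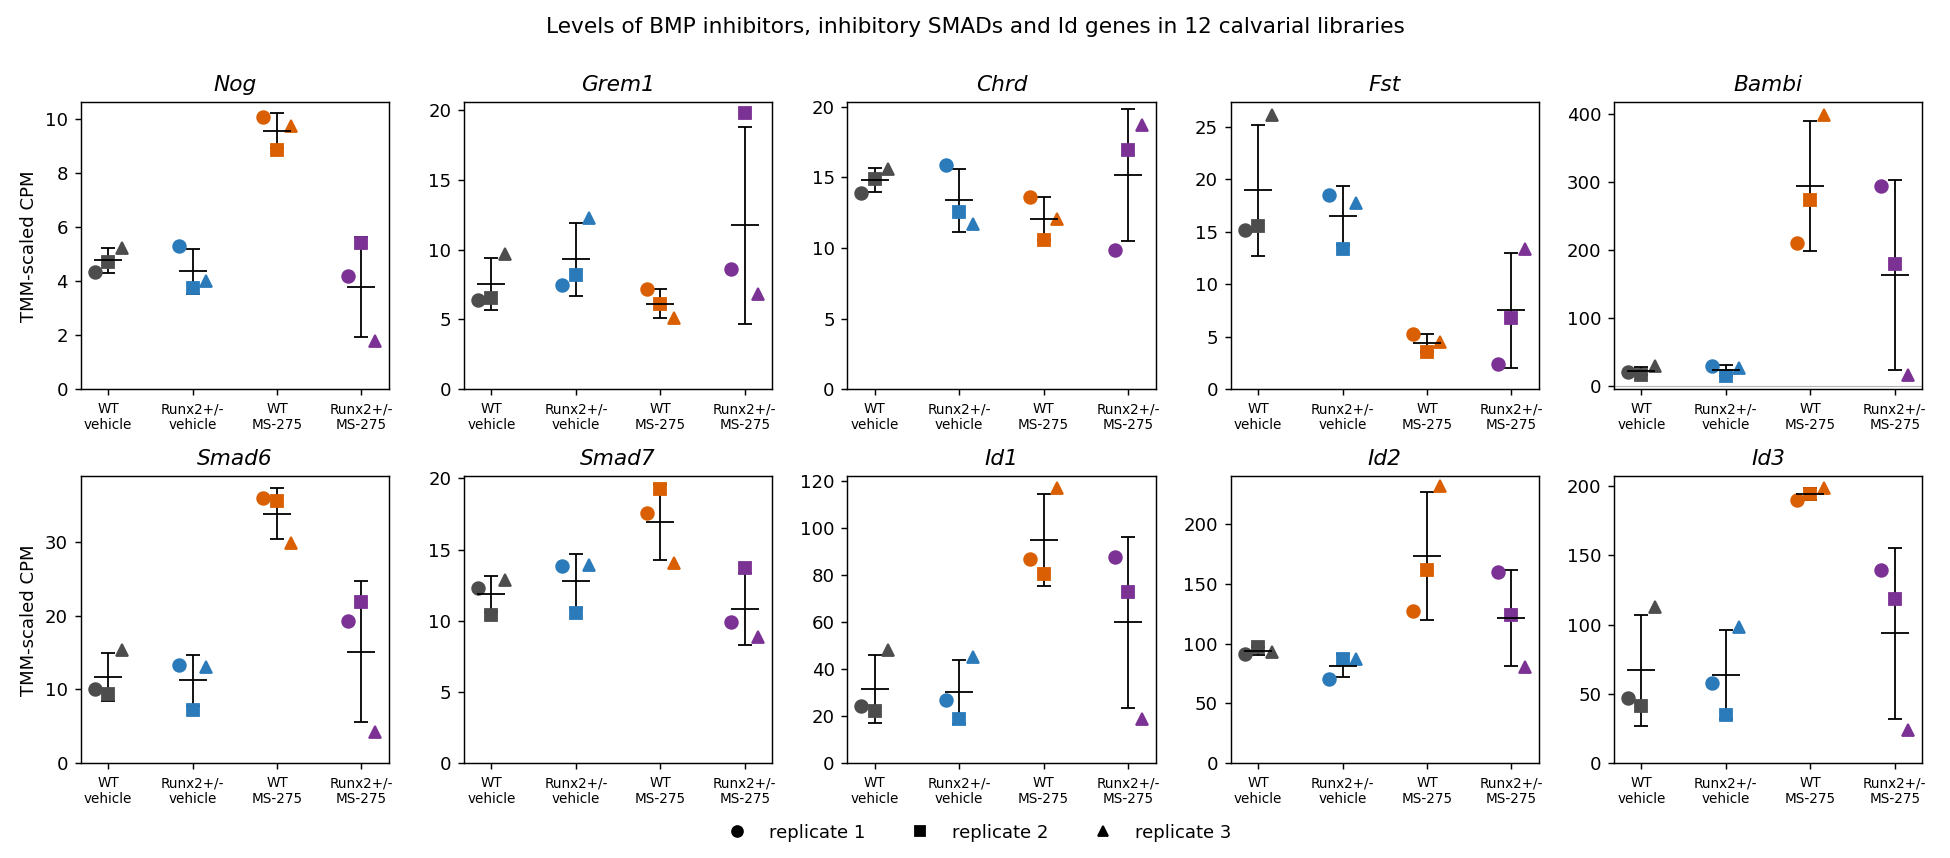
TMM-scaled CPM (vertical axis, linear) of the 10 genes in each of the 12 libraries, by group; symbols are replicates, bars are the mean and SD of 3 libraries. The 3 WT MS-275 libraries lie above all WT vehicle libraries for 7 genes and below them for Chrd and Fst, and replicate 3 of Runx2+/- MS-275 (triangle) lies near the vehicle libraries for Bambi (16.6 CPM) and Fst (13.4 CPM).

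The first comparison asks what MS-275 exposure did to these genes in WT calvariae. By the edgeR quasi-likelihood test, Bambi and Id2 rose and Fst fell, so 3 of 10 genes passed an adjusted p of 0.05 (2 higher, 1 lower). Over all genes tested 19.0% passed, 9.67% higher and 9.33% lower, so 3 of 10 is not read as particular to these genes. By the looser description of groups whose libraries do not overlap, 7 of the 10 were higher and 2 lower, where 54.8% of all genes had no overlap (27.3% higher and 27.5% lower). The median log2 fold change was 0.94 for the 10 genes and −0.13 for all genes.

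Positions are those of GENCODE M21 (GRCm38), and all 10 genes are protein coding. Among the secreted inhibitors, Fst (ENSMUSG00000021765, chr13:114452290-114458951, minus strand), which encodes follistatin, an antagonist of activins and some BMPs, changed most. The WT vehicle libraries held 15.2, 15.6 and 26.2 CPM, and the WT MS-275 libraries 5.27, 3.52 and 4.49 CPM. All 3 exposed libraries were below all 3 vehicle libraries. The log2 fold change was −2.10 (SE 0.51, 95% interval −3.21 to −0.98, edgeR adjusted p = 0.0434). Gm47040, an antisense gene that overlaps an exon of Fst, is not in the count files, and the counting is not stated to use strand, so its reads could not be told apart.

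Nog (ENSMUSG00000048616, chr11:89300638-89302332, minus strand), which encodes noggin, a high-affinity trap for BMPs, was at 4.35, 4.73 and 5.24 CPM in the WT vehicle libraries, while 10.1, 8.84 and 9.75 CPM were counted with MS-275. The groups did not overlap, and each group was tight, but the difference missed the threshold (log2 fold change 1.00, SE 0.37, edgeR adjusted p = 0.0647). Chrd (ENSMUSG00000006958, chr16:20733127-20742384, plus strand), which encodes chordin, was at 13.9 to 15.6 CPM in WT vehicle and 10.6 to 13.6 CPM in WT MS-275 (log2 fold change −0.29, SE 0.25, 95% interval −0.84 to 0.26, edgeR adjusted p = 0.353). An exon of Chrd overlaps Thpo on the other strand, which held 9 to 59 counts per library against 106 to 429 for Chrd. Grem1 (ENSMUSG00000074934, chr2:113746164-113758646, minus strand), which encodes gremlin, was the only gene of the 10 whose groups overlapped here, at 6.38 to 9.69 CPM against 5.09 to 7.16 CPM (log2 fold change −0.30, SE 0.40, 95% interval −1.18 to 0.59, edgeR adjusted p = 0.560).

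The make-up of the 4 secreted inhibitors can be read within each library, without any scaling between libraries. As a share of their summed level per kilobase, Fst made up 33.5% to 41.9% in the WT vehicle libraries, but 8.38% to 10.4% in those of WT MS-275. Nog made up 22.7% to 27.5% in the former, but 54.1% to 58.2% in the latter. Fst was the largest share in each WT vehicle library and Nog in each WT MS-275 library. Chrd kept a share of 18.3% to 23.5% and 18.4% to 19.8% in the 2 groups, and Grem1 15.5% to 17.2% and 12.4% to 16.2%.

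**Figure D2:**
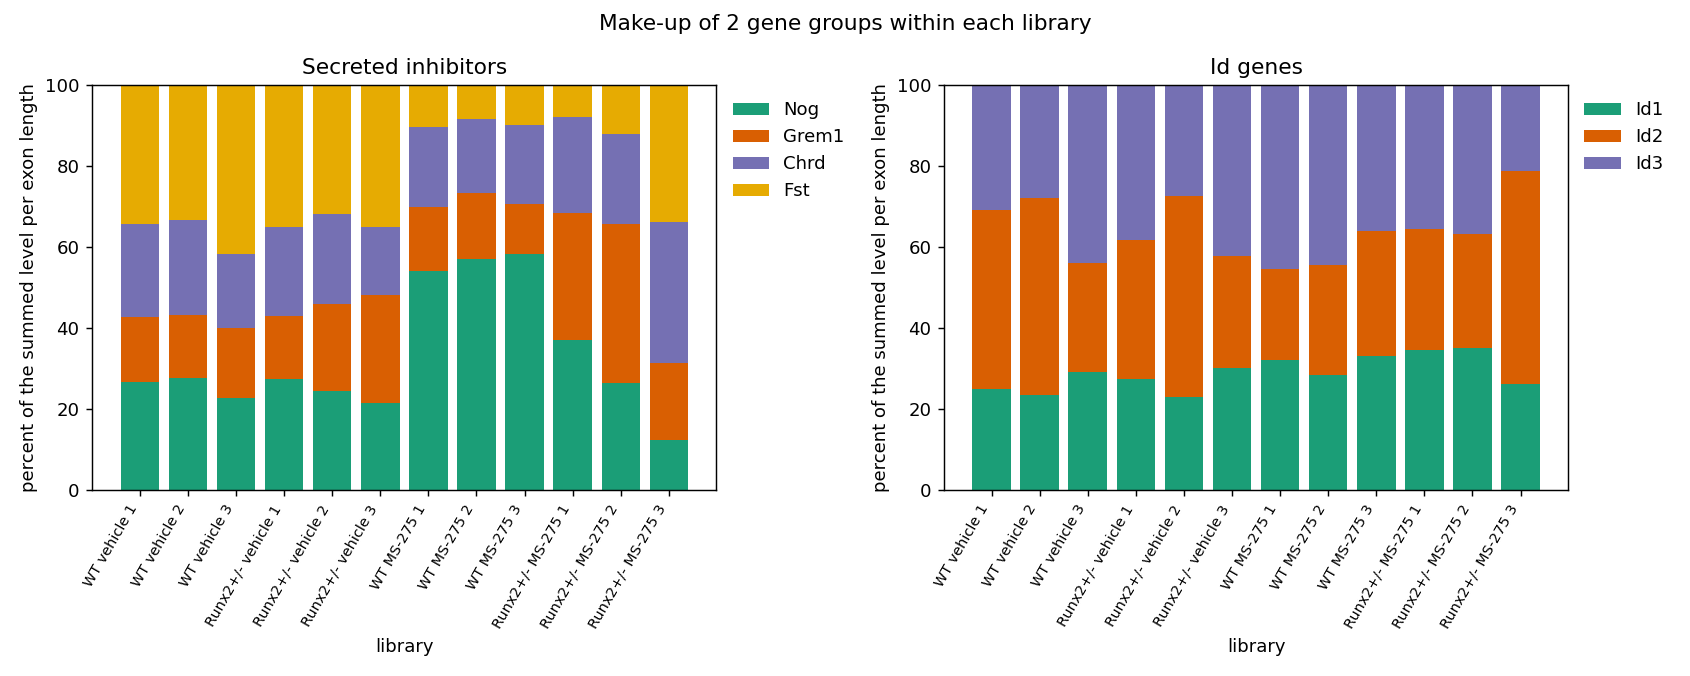
Stacked bars give, for each library on the horizontal axis, the percent of the summed level per exon length held by each of the 4 secreted inhibitors (left) and the 3 Id genes (right). In the left panel Fst holds 8.38% to 10.4% of the WT MS-275 bars, 7.92% and 12.2% of Runx2+/- MS-275 replicates 1 and 2, and 33.9% of Runx2+/- MS-275 replicate 3.

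Bambi (ENSMUSG00000024232, chr18:3507923-3516404, plus strand) had the largest change of the 10. It encodes a type I receptor look-alike that cannot signal and dampens BMP and TGF-beta receptors. The WT vehicle libraries held 20.2, 16.5 and 29.2 CPM, and the WT MS-275 libraries 210, 273 and 398 CPM, so the lowest exposed library was far above the highest vehicle library. The log2 fold change was 3.74 (SE 0.81, 95% interval 1.96 to 5.52, edgeR adjusted p = 0.0434). Bambi made up 3.23% to 3.82% of the summed level of the 10 genes per kilobase with vehicle, and 13.8% to 19.3% with MS-275. Its ratio to Fst, per kilobase, was 0.958 to 1.20 with vehicle, and 36.1 to 80.3 with MS-275.

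Of the inhibitory SMADs, Smad6 had the larger fitted difference. Smad6 (ENSMUSG00000036867, chr9:63953076-64022059, minus strand), whose product blocks mainly BMP receptor signals, was at 10.1, 9.46 and 15.4 CPM with vehicle, and at 35.9, 35.5 and 29.8 CPM with MS-275, without overlap. Its difference missed the threshold (log2 fold change 1.53, SE 0.50, 95% interval 0.43 to 2.64, edgeR adjusted p = 0.0526). Smad7 (ENSMUSG00000025880, chr18:75367529-75395935, plus strand), whose product blocks TGF-beta as well as BMP receptors, was at 10.4 to 12.9 CPM and at 14.1 to 19.2 CPM (log2 fold change 0.51, SE 0.23, edgeR adjusted p = 0.0987). The 2 groups did not overlap for Smad7 either, but its direction depends on the scaling given below. The ratio of Smad6 to Smad7 per kilobase, which needs no scaling, was 1.15 to 1.69 with vehicle, and 2.61 to 2.99 with MS-275.

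Of the Id genes, Id2 (ENSMUSG00000020644, chr12:25093799-25097140, minus strand) passed the test. The WT vehicle libraries held 91.3, 97.5 and 93.0 CPM, and the WT MS-275 libraries 127, 161 and 232 CPM. The groups did not overlap, and the log2 fold change was 0.88 (SE 0.27, 95% interval 0.28 to 1.49, edgeR adjusted p = 0.0484), against 0.01 when scaled by library size alone. Id1 (ENSMUSG00000042745, chr2:152736251-152737410, plus strand) and Id3 (ENSMUSG00000007872, chr4:136143497-136145755, plus strand) had larger fitted differences with wider errors. Id1 was at 24.6, 22.2 and 48.4 CPM with vehicle, and at 86.9, 80.5 and 117 CPM with MS-275 (log2 fold change 1.58, SE 0.54, edgeR adjusted p = 0.0565). Id3 was at 46.9, 41.2 and 113 CPM with vehicle, and at 190, 194 and 198 CPM with MS-275 (log2 fold change 1.53, SE 0.61, edgeR adjusted p = 0.0792). In both genes replicate 3 was the highest WT vehicle library, yet no WT vehicle library reached the WT MS-275 range.

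These calls rest on a narrow margin. Under edgeR the smallest adjusted p of any gene in this comparison was 0.0434, and 8 of the 10 genes had an unadjusted p under 0.05, as did 47.4% of all genes. DESeq2 called 7 of the 10 (40.3% of all genes), adding Nog, Smad6, Id1 and Id3, and a fit of only the 2 WT groups called 7 (44.3%). In contrast, 0 of the 10 were called by limma-voom (0.00557% of all genes), by edgeR without the filter on low counts (0%) and by edgeR with the replicate number as a block (0%), with 8, 7 and 7 of the 10 at an unadjusted p under 0.05. Runx2+/- MS-275 replicate 3 is in neither WT group and enters through the gene filter, the scaling and the shared estimate of spread. Without it 7 were called (46.6%), and without all 3 libraries that stood apart 7 were called (60.3%). No gene of the 10 was called when any 1 of WT vehicle 1 or 2, Runx2+/- vehicle 1 or 2, WT MS-275 1, 2 or 3, or Runx2+/- MS-275 2 was left out, and in each of these fits edgeR called 0 of all genes and 5 to 8 of the 10 had an unadjusted p under 0.05. The count was 2 without Runx2+/- vehicle 3 (11.0% of all genes), 5 without WT vehicle 3 (30.6%) and 5 without Runx2+/- MS-275 1 (30.4%). Over these 12 settings the log2 fold change stayed between 3.46 and 4.00 for Bambi, −2.24 and −1.79 for Fst, and 0.62 and 1.07 for Id2.

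The scaling sets where 0 lies. With library size alone in place of TMM factors, the median of all genes moved from −0.13 to −0.95 and the calls over all genes turned from 1738 higher and 1676 lower to 526 higher and 7009 lower (41.9% of all genes). Of the 10, Bambi (higher) and Fst (lower) were then called. On that scale Id2 had a log2 fold change of 0.01 and Smad7 of −0.29, while Bambi had 2.88 and Fst −2.89. Relative to the median of all genes the differences hardly moved: Bambi was at 3.87 with TMM and 3.83 with library size, Id2 at 1.01 and 0.96, Smad7 at 0.64 and 0.66, and Fst at −1.97 and −1.94.

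Markers of cell types moved between the same 2 groups. All 8 epidermal markers fell, with a summed level of 1284 to 3990 CPM in WT vehicle and 11.7 to 14.8 CPM in WT MS-275. Of 9 osteoblast markers 6 rose, with a summed level of 10563 to 15430 and 65143 to 81318 CPM. Skeletal muscle markers fell in 4 of 8 (2108 to 3932 and 171 to 1283 CPM), neuronal markers in 2 of 8 (156 to 1892 and 53.1 to 409 CPM), lens markers in 1 of 7 tested (86.0 to 1032 and 50.9 to 68.2 CPM, with Lim2 at 0 in WT MS-275) and adipocyte markers in 2 of 8 (119 to 384 and 210 to 266 CPM, with Plin1 at 0 in WT MS-275). Chondrocyte markers rose in 1 of 8 (314 to 808 and 686 to 1394 CPM) and endothelial markers in 1 of 8 (308 to 471 and 624 to 843 CPM). Their part in the differences of the 10 genes was not tested, and in bulk tissue fewer cells of a type and less RNA per cell cannot be told apart.

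The second comparison asks the same of Runx2+/- calvariae. By edgeR none of the 10 genes was called, as was none of all genes tested (0%). At an unadjusted p under 0.05 there were 2 of the 10 genes, Bambi and Fst, and 3782 of all genes (21.0%). All 10 genes overlapped between the groups, while 14.9% of all genes did not. DESeq2 called Bambi alone of the 10 (log2 fold change 2.80, adjusted p = 0.00959), among 5.05% of all genes.

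Every overlap in Bambi and Fst came from replicate 3 of Runx2+/- MS-275. Bambi stood at 29.5, 14.0 and 26.3 CPM in Runx2+/- vehicle and at 294, 179 and 16.6 CPM in Runx2+/- MS-275. The first 2 exposed libraries were in the range of WT MS-275 or close to it, and the last was in the vehicle range. Fst stood at 18.5, 13.3 and 17.8 CPM in Runx2+/- vehicle and at 2.41, 6.78 and 13.4 CPM in Runx2+/- MS-275, with the same library in the vehicle range. Over all 3 libraries the log2 fold change was 2.81 for Bambi (SE 0.77, edgeR adjusted p = 0.181) and −1.13 for Fst (SE 0.49, edgeR adjusted p = 0.225). The ratio of Bambi to Fst per kilobase was 0.948 to 1.44 in Runx2+/- vehicle and 110, 23.8 and 1.13 in Runx2+/- MS-275.

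The Id genes and Smad6 split in the same way. Id3 was at 35.1 to 98.4 CPM in Runx2+/- vehicle and at 139, 119 and 23.8 CPM in Runx2+/- MS-275. Id1 was at 19.0 to 45.4 CPM and at 88.0, 73.0 and 18.8 CPM. Id2 was at 70.6 to 87.4 CPM and at 160, 124 and 80.3 CPM. Smad6 was at 7.23 to 13.4 CPM and at 19.2, 21.9 and 4.22 CPM. In Id1, Id3 and Smad6 replicate 3 was below the lowest vehicle library, and in Id2 it fell within the vehicle range.

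Without that replicate, edgeR called 5 of the 10 genes (4 higher, 1 lower), where 32.7% of all genes were called (18.5% higher, 14.2% lower). Bambi rose by 3.35 on the log2 scale (SE 0.40, edgeR adjusted p = 0.00197) and Fst fell by 1.84 (SE 0.44, adjusted p = 0.0141). Id1 rose by 1.40 (edgeR adjusted p = 0.0265), Id2 by 0.80 (0.0298) and Smad6 by 0.87 (0.0458). Id3 missed the threshold at 1.02 (SE 0.46, edgeR adjusted p = 0.110). Groups without overlap were Bambi, Smad6, Id1, Id2 and Id3 higher (30.1% of all genes were higher without overlap) and Fst lower (33.5%). Without all 3 libraries that stood apart 6 were called, against 52.8% of all genes. With 2 libraries left in the group, the fit assumes that it varies like the other groups.

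The remaining inhibitors were not called with or without the replicate. Nog stood at 5.32, 3.75 and 4.02 CPM in Runx2+/- vehicle and at 4.18, 5.42 and 1.78 CPM in Runx2+/- MS-275, with a log2 fold change of −0.21 (SE 0.37, 95% interval −1.02 to 0.60) over all libraries and 0.14 (SE 0.25) without replicate 3. Smad7 was at 10.6 to 13.9 CPM and at 9.94, 13.7 and 8.88 CPM (log2 fold change −0.24, SE 0.23, and −0.11 without replicate 3). Neither gene was higher with MS-275 in any library beyond the vehicle range except Nog in replicate 2. Grem1 was at 7.44, 8.18 and 12.3 CPM and at 8.64, 19.8 and 6.79 CPM, with replicate 2 alone above the rest. Chrd was at 11.7 to 15.9 CPM and at 9.84, 16.9 and 18.7 CPM, which surround the vehicle range.

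Marker levels differed between these libraries too. The summed epidermal markers were at 1141 to 2679 CPM in Runx2+/- vehicle and at 8.17, 17.6 and 1678 CPM in Runx2+/- MS-275. The osteoblast markers were at 8295 to 22094 CPM and at 70203, 40206 and 3507 CPM. In these lists replicate 3 of Runx2+/- MS-275 was within or past the vehicle range, away from the other exposed libraries. The same held for neuronal (336 to 2180 CPM, then 245, 118 and 1360), chondrocyte (362 to 977 CPM, then 1686, 2347 and 159) and endothelial markers (272 to 376 CPM, then 891, 698 and 264). Adipocyte markers were higher in all 3 exposed libraries, replicate 3 included (108 to 154 CPM, then 291, 263 and 433), and skeletal muscle (1024 to 3811 CPM, then 1972, 2327 and 2572) and lens markers (68.5 to 907 CPM, then 125, 87.8 and 730) lay within the vehicle range in all 3. By edgeR no gene of the 8 lists was called, and their part in the values of the 10 genes was not tested.

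**Figure D3:**
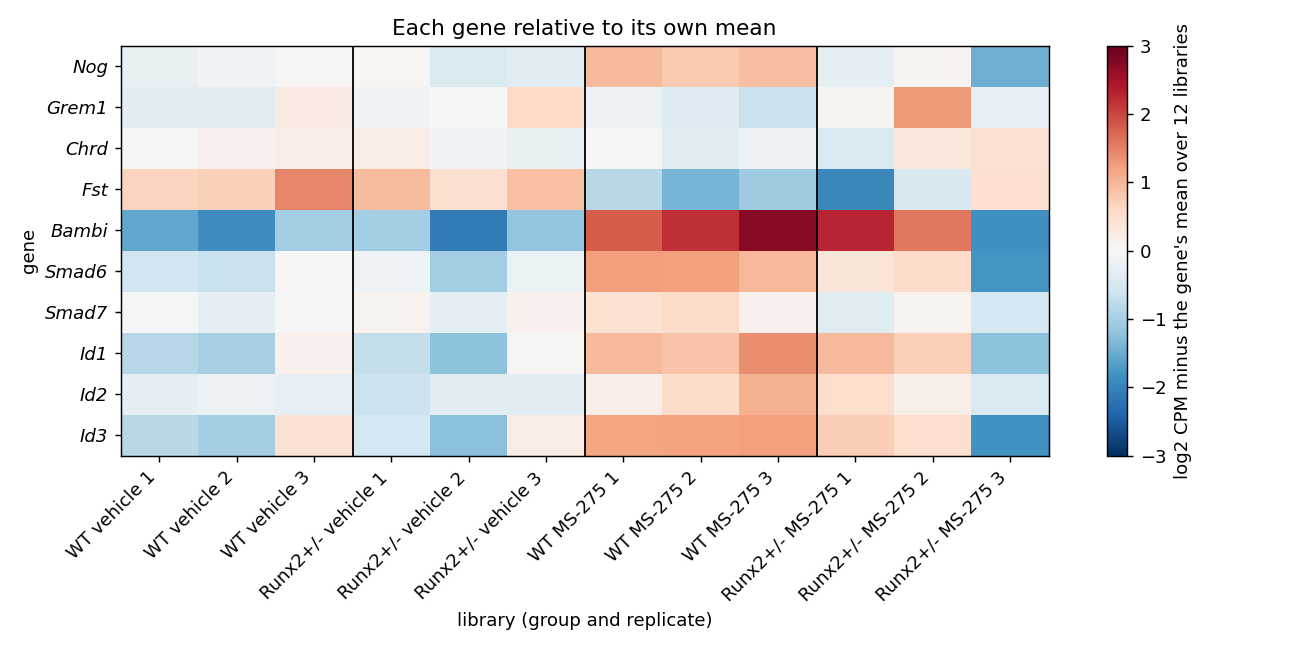
Colour gives each gene's log2 CPM minus its own mean over 12 libraries, from blue (lower) to red (higher), with groups separated by lines. Bambi is red in 5 MS-275 libraries and blue in Runx2+/- MS-275 replicate 3 (−1.84), as it is in WT vehicle replicate 1 (−1.56), and Fst shows the opposite colours.

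The third comparison sets Runx2+/- against WT in vehicle. None of the 10 genes was called by edgeR or DESeq2 (0% of all genes by each). None had an unadjusted p under 0.05, and 55 of all genes (0.306%) did by edgeR. The log2 fold changes ran from −0.20 (Id2) to 0.30 (Grem1), all with an edgeR adjusted p of 1.00. The 95% intervals ran from −0.93 to 0.67 for Nog, from −1.53 to 1.69 for Bambi and from −0.39 to 0.60 for Smad7. Differences within these intervals were thus not excluded. The vehicle libraries of the same number deviated together. Those numbered 1 and 2 did so across numbers too, so the numbers are not shown to pair these. A fit of the vehicle groups alone, chosen after seeing the data, took the same-numbered pairs as a block. Its standard errors were smaller, but none of the 10 was called or had an unadjusted p under 0.05. In that fit Grem1, higher in Runx2+/- in 3 of 3 pairs, differed by 0.29 on the log2 scale (SE 0.15), with an adjusted p of 0.918 by edgeR. Id2, lower in 3 of 3 pairs, had −0.21 (SE 0.095), and Smad7, higher in 3 of 3, had 0.099 (SE 0.13). The other 7 genes differed in sign between pairs. Only Id2 did not overlap between the groups, at 70.6, 86.7 and 87.4 CPM in Runx2+/- vehicle and 91.3, 97.5 and 93.0 CPM in WT vehicle, where 2.09% of all genes were lower without overlap. In both vehicle groups replicate 3 had the highest Id1 (48.4 and 45.4 CPM) and Id3 (113 and 98.4 CPM), and this spread within groups was wider than the difference between them.

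The fourth comparison sets Runx2+/- against WT under MS-275. None of the 10 was called by edgeR (0% of all genes), 4 had an unadjusted p under 0.05, and so had 2832 of all genes (15.8%). Nog had the smallest p of the 10: 4.18, 5.42 and 1.78 CPM in Runx2+/- MS-275 lay below 10.1, 8.84 and 9.75 CPM in WT MS-275, with a log2 fold change of −1.34 (SE 0.37, 95% interval −2.16 to −0.52, edgeR adjusted p = 0.265). DESeq2 called Nog alone of the 10 (adjusted p = 0.0163), among 3.72% of all genes. Smad7 (−0.65, SE 0.23), Smad6 (−1.17, SE 0.50) and Grem1 (0.93, SE 0.40) had edgeR adjusted p-values of 0.265, 0.302 and 0.304. Nog, Smad6, Smad7 and Id3 were lower in Runx2+/- without overlap, 4 of 10 where 7.52% of all genes were.

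Nog and Smad6 were lower also without replicate 3 of Runx2+/- MS-275. In that fit the log2 fold change was −0.99 for Nog (SE 0.26, edgeR adjusted p = 0.464) and −0.72 for Smad6 (SE 0.30, edgeR adjusted p = 0.613). The same 4 genes were lower without overlap, where 12.3% of all genes were, and Grem1 was higher without overlap (log2 fold change 1.21, SE 0.38, edgeR adjusted p = 0.478), where 13.3% were. By edgeR no gene of all tested was called in that fit (0%). In the make-up of the secreted inhibitors, Nog held 37.1% and 26.3% in Runx2+/- MS-275 replicates 1 and 2, against 54.1% to 58.2% in WT MS-275. Grem1 held 31.3% and 39.3% in those 2 libraries, against 12.4% to 16.2% in WT MS-275, while Fst was low in both genotypes. Markers differed between these groups too: skeletal muscle markers summed to 1972, 2327 and 2572 CPM in Runx2+/- MS-275 against 171 to 1283 CPM in WT MS-275, without overlap. Chondrocyte markers were at 1686 and 2347 CPM in replicates 1 and 2, above the WT range of 686 to 1394 CPM, and at 159 CPM in replicate 3. Osteoblast markers, at 70203, 40206 and 3507 CPM, were above the lowest WT MS-275 library (65143 CPM) only in replicate 1. No marker was called by edgeR, and the part of these levels in the differences of the 10 genes was not tested.

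The interaction, the MS-275 difference in Runx2+/- minus that in WT, tests whether the genotypes responded differently. None of the 10 was called by edgeR (0% of all genes) or by DESeq2 (0.212% of all genes). By edgeR 2 of the 10 and 953 of all genes (5.30%) had an unadjusted p under 0.05. The 2 genes were Nog (−1.21, SE 0.52) and Smad7 (−0.75, SE 0.32), each with an edgeR adjusted p of 0.873. Bambi, called in WT and not in Runx2+/-, had an interaction of −0.93 (SE 1.03, 95% interval −3.20 to 1.34), and Fst, called lower in WT, of 0.97 (SE 0.69, 95% interval −0.55 to 2.49), so a different response of either was not shown. Without Runx2+/- MS-275 replicate 3 the interactions of Bambi and Fst were −0.39 (SE 0.53) and 0.26 (SE 0.55).

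**Figure D4:**
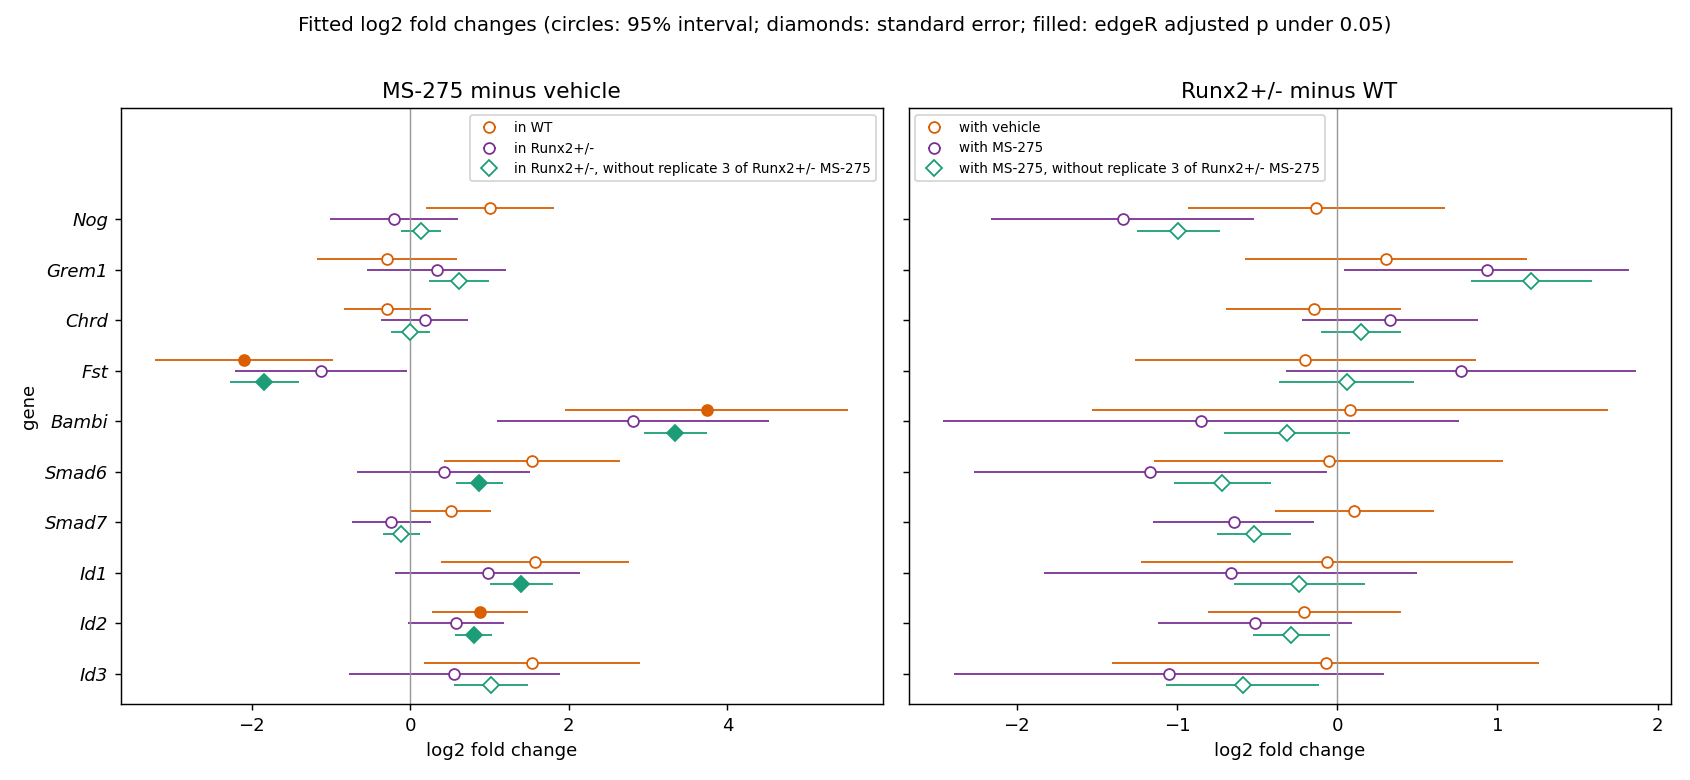
Fitted log2 fold changes (horizontal axis) of the 10 genes for MS-275 minus vehicle (left) and Runx2+/- minus WT (right); circles have 95% intervals, diamonds (fit without Runx2+/- MS-275 replicate 3) have standard errors, and filled symbols passed an edgeR adjusted p of 0.05. On the left the WT and Runx2+/- diamond values are on the same side of 0 for Bambi (3.74 and 3.35) and Fst (−2.10 and −1.84), while Nog (1.00 and 0.14) is apart.

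The profiles of the members across all 12 libraries were compared in pairs. Likeness was measured as the root mean square difference between log2 CPM values, each centred on its own mean. This measure depends on how widely each gene varied as well as on direction. A pair far apart by it can therefore still rise and fall together. Id1 and Id3 were closest (0.26), followed by Smad6 and Id3 (0.28) and Smad6 and Id1 (0.38). Smad6 and Smad7 differed by 0.66. Id2 was no closer than 0.47 to any of the other 9. That value, for Smad7, was near the spread of Id2 about its own mean (0.485). It therefore does not show that Id2 varied with Smad7 rather than with Id1 or Id3. The share of Id2 in the summed Id level ranged from 22.3% (WT MS-275 replicate 1) to 52.7% (Runx2+/- MS-275 replicate 3).

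Among all genes tested, the 2 nearest to each member were found by the same measure over the 12 libraries. They were Larp6 (0.21) and Yif1b (0.22) for Nog, Colgalt2 (0.22) and Cdon (0.24) for Grem1, Flcn and Abcd4 (0.13 each) for Chrd, and Crybg1 (0.23) and Tmem125 (0.26) for Fst. For Bambi they were Pla2g5 (0.25) and Panx3 (0.26), against a spread of Bambi about its own mean of 1.83. Smad6 was nearest to Pkdcc (0.13) and Cnn2 (0.19), and Smad7 to Daam2 (0.10) and Mylk (0.12). Id1 was nearest to Npc2 (0.11) and Nenf (0.12), Id2 to Trappc3 and Tiprl (0.13 each), and Id3 to Gadd45b (0.18) and Pycr1 (0.19). Chrd and Smad7 varied little about their own means (0.26 and 0.31), so small differences to other genes say less for them.

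A list of 67 other BMP and TGF-beta pathway genes puts the 10 in place, and 66 were tested (Cer1 had at most 11 counts). In WT, edgeR called 8 higher and 10 lower with MS-275, beside 9.67% and 9.33% of all genes, and the median log2 fold change was 0.26. With library size alone 1 was called higher and 23 lower, beside 526 higher and 7009 lower of all 17967 genes. On that scale Skil, Smurf2 and Tgfbr1, called higher below, turned to −0.12, −0.20 and −0.28. Of 16 ligands, Bmp3, which antagonises osteogenic BMPs, rose by 2.19 (15.9 ± 5.90 to 72.4 ± 11.7 CPM), and Gdf6 fell by 2.87. Among the other extracellular modulators, Sost, the osteocyte product sclerostin, rose by 2.53, and Chrdl1, a chordin relative, by 2.29 (33.4 ± 17.2 to 164 ± 11.9 CPM). Sostdc1, the sclerostin relative, fell by 2.38 (23.8 ± 2.76 to 4.55 ± 2.43 CPM).

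Of 14 receptors and co-receptors, 5 fell and 1 rose, and their median log2 fold change was 0.02. The type I receptor Bmpr1b fell by 1.98, the activin type II receptor Acvr2b by 1.73, and Tgfbr1 rose by 0.56. Of 6 receptor-regulated and common SMADs, Smad9 rose by 1.80 (9.27 ± 2.26 to 32.3 ± 2.86 CPM) and the others were not called. Of 8 other intracellular inhibitors, Skil, a SMAD corepressor, rose by 0.73, the ubiquitin ligase Smurf2 by 0.64, and the ubiquitin ligase Nedd4l fell by 2.55. Of 8 other targets, Msx1 rose by 1.35 and Id4 fell by 2.52 (22.8 ± 12.5 to 3.96 ± 1.20 CPM), opposite to Id2. Each rise or fall of a named pathway gene, here and for the ligands and extracellular modulators, is an edgeR log2 fold change with TMM scaling. These rises and falls had edgeR adjusted p-values of 0.0434 to 0.0487.

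In Runx2+/- none of the 66 was called, with 12 at an unadjusted p under 0.05, beside 21.0% of all genes. The smallest p-values were those of Rgma, a BMP co-receptor (log2 fold change −1.12, SE 0.27), and Gdf11 (−0.63, SE 0.16), each with an edgeR adjusted p of 0.181. The genotype comparisons and the interaction also called none of the 66 by edgeR. At an unadjusted p under 0.05 there were 0 genes in vehicle, 11 under MS-275 and 9 in the interaction. The shares of all genes were 0.306%, 15.8% and 5.30%.

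**Figure D5:**
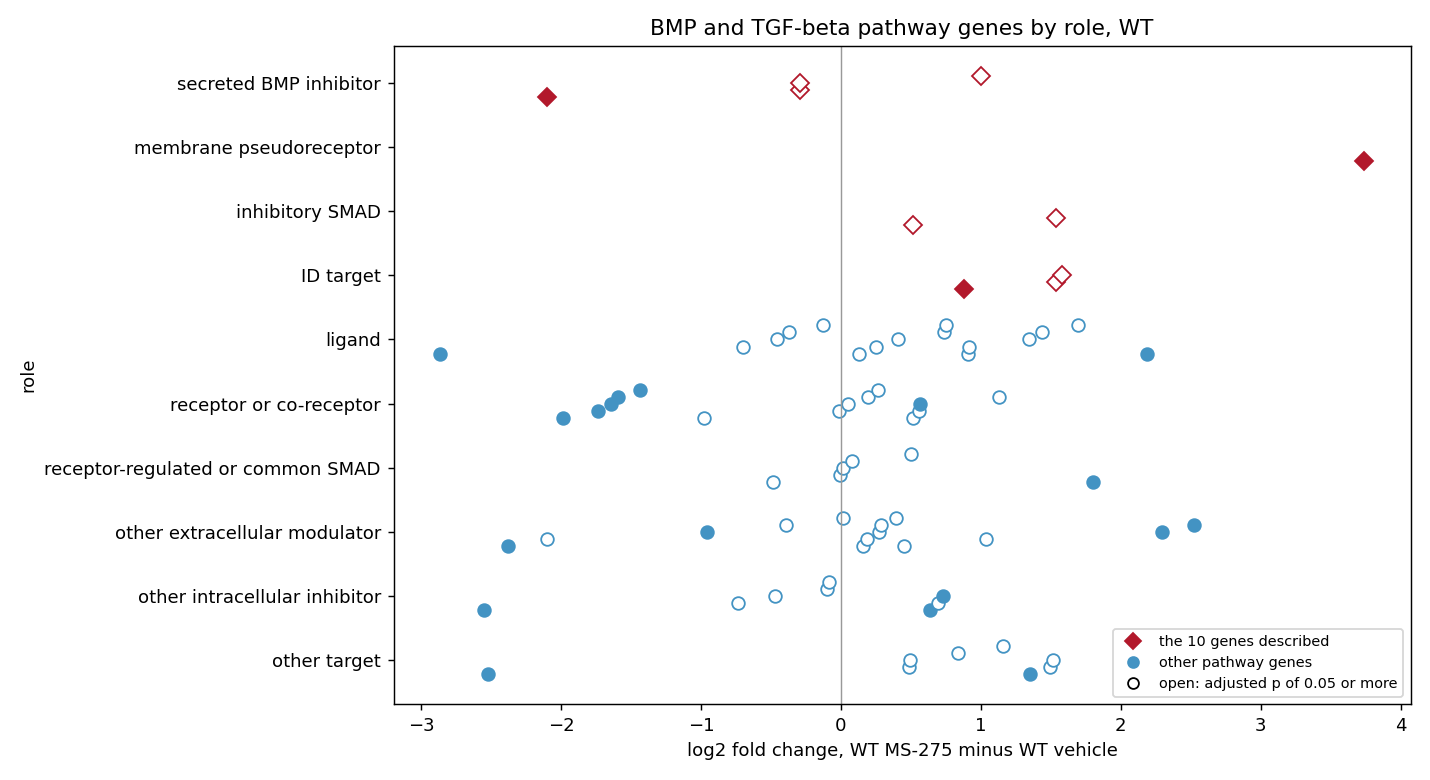
Each symbol is 1 gene, placed by its edgeR log2 fold change for WT MS-275 minus WT vehicle (horizontal axis) and its role (vertical axis); red diamonds are the 10 genes described, blue circles the other pathway genes, and filled symbols passed an adjusted p of 0.05. Bambi (3.74) lies furthest to the right, and Gdf6 (−2.87) furthest to the left.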

How the data were processed

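The deposited values are raw read counts of mouse Ensembl genes, with 1 file for each library. Per the submitters' processing notes the authors used Trimmomatic, Bowtie2, SAMtools and HTSeq (no versions are named there), and the notes name GRCh38.p7, a human build, while the identifiers are those of mouse. Per the labels' protocols the kit marks strand, but whether the counting used strand is not given, so reads of overlapping antisense genes cannot be told apart. Symbols, positions and exon lengths come from GENCODE M21 (GRCm38). Entries that name no gene stayed out of library sizes and tests, and 5.21% to 22.2% of the uniquely aligned reads fell in no gene.

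Of all genes, filterByExpr with the 4 groups kept 17967. Counts were scaled by TMM (factors 0.598 to 1.33) and fitted with 4 group means over all 12 libraries with edgeR 4.0.16 (quasi-likelihood F test, robust, 8 residual degrees of freedom, R 4.3.3). P-values are two-sided and were adjusted by the Benjamini-Hochberg method over all 17967 genes within a comparison, with a threshold of 0.05. CPM values carry the TMM factors, and an SE is the absolute log2 fold change over the square root of F. An exact permutation test of 3 against 3 libraries cannot reach p under 0.1 and was not used. No 2 of the 12 libraries agreed within counting noise (66 pairs, lowest chi-square per degree of freedom 15.2). Alternatives were DESeq2 1.42.0, limma-voom (limma 3.58.1), RLE or library-size scaling, no filter, only the groups compared, a replicate block, leaving out each library, and leaving out the 3 that stood apart. Same-numbered vehicle libraries deviated together in every pair (r = 0.22 to 0.81). Libraries numbered 1 and 2 did so across numbers too (r = 0.27 and 0.68), so the numbers are not shown to pair these. Between the vehicle groups the replicate block called 0 of the 10 genes, as the fit without it did.

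The 10 genes, the pathway list and the marker lists (osteoblast, epidermis, skeletal muscle, neuron, lens, endothelial, chondrocyte, adipocyte) were chosen with earlier results of these data known. All 10 genes and Runx2 are named. Pathway genes are named by the largest changes among those called, up to 2 a direction in each role and MS-275 comparison, or else the 2 smallest p-values, and like genes as the 2 nearest. Python 3.11.15 drew the figures. One result on a pathway gene is not reported here.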

Additional observations from a re-analysis of the deposited data

How the results depend on the processing

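In WT with MS-275, edgeR called 3 of the 10 genes and 18 of the 66 other pathway genes. These counts became 7 and 31 with only the groups compared, 7 and 41 without the 3 libraries that stood apart, 0 and 0 without the filter on low counts, and 0 and 0 with limma-voom. DESeq2 called 7 of the 10. Leaving out 1 library gave 0 to 7 and 0 to 34. Over all genes the 3414 calls became 7223 with DESeq2, 7535 with library size only, 7309 with only the groups compared, 10887 without the 3 libraries, 1 with limma-voom, 0 without the filter and 0 to 8480 when 1 library was left out. In Runx2+/- with MS-275, the 0 and 0 became 1 and 3 with DESeq2, 6 and 26 without the 3 libraries, and 0 to 5 and 0 to 18 when 1 library was left out. Of all genes, 5.05% were called there with DESeq2, 52.8% without the 3 libraries and 0% to 32.7% when 1 library was left out. For genotype under MS-275 the 0 and 0 became 1 and 5 with DESeq2 (3.72% of all genes). Leaving out 1 library there gave 0 to 1 pathway genes and 0 to 23 of all genes. The cause was not tested.

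With the replicate number as a block, the WT calls went from 3 to 0 of the 10 genes, from 18 to 0 of the pathway genes and from 3414 to 0 of all genes. Bambi then had 3.77, Fst −2.02 and Id2 0.88 on the log2 scale, with edgeR adjusted p-values of 0.0887, 0.0887 and 0.0945. In the MS-275 comparisons the numbers did not pair the libraries, as same-numbered libraries had correlations of −0.41 to −0.04 in WT and −0.66 to −0.25 in Runx2+/-. A block within the vehicle groups alone, chosen after seeing the data, called 0. The block changed no other call.

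Among the 10 genes, directions that turned were all of differences that had not passed. Of the 18 pathway genes called in WT, Skil, Smurf2 and Tgfbr1 turned with library size only (−0.12, −0.20 and −0.28, none called). In that setting the split of pathway genes went from 8 higher and 10 lower to 1 and 23. Over all genes it went from 1738 higher and 1676 lower to 526 and 7009. With library size only, Smad7 had −0.29 in WT with MS-275, and Grem1 −0.23, Chrd −0.21, Smad6 −0.30, Id2 −0.040 and Id3 −0.19 in Runx2+/- with MS-275, where Smad6 had −0.036 with limma-voom. Without the 3 libraries, Nog had 0.033 and Chrd −0.13 in Runx2+/- with MS-275. The same setting gave Nog 0.0076, Fst 0.059, Smad6 0.083 and Id3 0.086 between genotypes in vehicle, and Fst −0.029 in the interaction. Leaving out 1 library gave, in Runx2+/- with MS-275, −0.27 to 0.61 for Grem1 and −0.56 to 0.14 for Nog. Between genotypes in vehicle it gave −0.13 to 0.34 for Bambi, −0.34 to 0.11 for Fst, −0.20 to 0.20 for Smad6, −0.47 to 0.38 for Id1 and −0.53 to 0.54 for Id3. Fst had 26 to 85 counts in all MS-275 libraries except Runx2+/- MS-275 replicate 3 (307), and Nog had 41 to 155 counts over all libraries. The part of depth in the precision of these genes was not tested.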
